A study of Cavia porcellus with 72 samples.

Results

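The genes described here are DNA methylation writers, erasers and readers, listed by symbol as DNMT1, DNMT3A, UHRF1, TET1, TET2, TET3, MBD2, MBD3 and ZFP57. Of these 9 genes, 8 had a row in each of the 3 count tables of the series, among 11444 genes found in all 3, and TET3 was not analysed here. In mammals, methyl groups on cytosines next to guanine are set by DNMT3 enzymes and copied to the new strand after DNA replication by DNMT1, which UHRF1 brings to half-methylated sites. TET enzymes oxidise the methyl group, which starts its removal, and proteins with a methyl-binding domain (MBD) or certain zinc fingers bind near methylated sites and bring repressor complexes. In the brain, where most neurons no longer divide, DNMT3A and the TET enzymes are known for changes of methylation after birth.

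The samples were mRNA libraries from the right hippocampus of female Dunkin-Hartley guinea pigs, killed unstressed on postnatal day 40. Pregnant F0 animals received betamethasone, a synthetic glucocorticoid (sGC), or saline (control), so that F1 offspring were exposed before birth. F1 males, and then F2 males, were mated with untreated females to give F2 and F3, so that F2 and F3 of the sGC lineage descend from an exposed male and received no treatment of their own. There were 36 libraries, from 6 control and 5 sGC animals in F1, 6 and 6 in F2, and 6 and 7 in F3. Whole hippocampus was used, so that fewer cells of a type and less RNA per cell cannot be told apart.

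Each library held between 13507449 and 19767033 reads counted on genes. Of 10 marker genes of dentate and pyramidal neurons, 8 were measured, with a summed level between 664 and 802 counts per 1000000 (CPM, scaled by library size) in all libraries. The sGC replicates 4 and 5 of F1, 6 of F2, and 5 and 6 of F3 carry the library numbers 32 to 36, outside the run of their generation, and no control library does. The F2 table stood apart from the other tables. Between the F2 and F1 control libraries 454 of 11309 genes differed more than 2-fold in the fitted level and 176 more than 4-fold, against 5 and 0 genes between F3 and F1. Generation and table coincide, so that they cannot be told apart, and levels set across generations below carry this limit. In F1, sGC replicate 4 stood apart from its group, with chi-square values per degree of freedom of 17.5 to 29.1 against the other 4 libraries, which had 5.28 to 11.4 among themselves. In F3, sGC replicates 1 to 4 and 7 had 4.19 to 8.04 among themselves. Against these, replicate 6 had 7.36 to 16.7, and replicate 5 had 2.12 to 3.25, with 2.12 the lowest value of the series. The value between replicates 5 and 6 was 11.6. The cause was not tested.

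Of the 8 measured genes, ZFP57 was lower in F1 sGC animals than in F1 controls, and no other gene of the set passed the test in any generation. ZFP57 is a zinc finger protein with a KRAB domain that binds methylated imprinting control regions and recruits the corepressor TRIM28. Its level in the F1 sGC animals was 34.3, 29.2, 26.1, 22.5 and 23.8 CPM in replicates 1 to 5. In the F1 controls the lowest, median and highest levels were 35.97, 40.6 and 53.6 CPM. All 5 sGC animals lay below every control animal, a separation that 4.28% of the genes tested showed in F1. The mean was 42.0 ± 6.09 CPM (SD, n = 6) in control and 27.1 ± 4.73 CPM (SD, n = 5) in sGC animals, so that ZFP57 fell by 35.3%. On the log2 scale the difference of sGC from control (the log2 fold change) was -0.63, with a standard error (SE) of 0.115 and an adjusted p of 0.0184 (Benjamini-Hochberg, from the quasi-likelihood test of edgeR). In the same test 237 of 11377 genes (2.08%) passed an adjusted p of 0.05, against 1 of these 8 genes. The lowest 2 values belonged to replicates 4 and 5, whose numbers lie outside the run. Without those libraries the log2 difference was -0.50 (edgeR adjusted p = 0.0643), and without replicate 5 alone the adjusted p was 0.0541. Without replicate 4 alone the log2 difference was -0.57 (edgeR adjusted p = 0.0231).

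**Figure D1:**
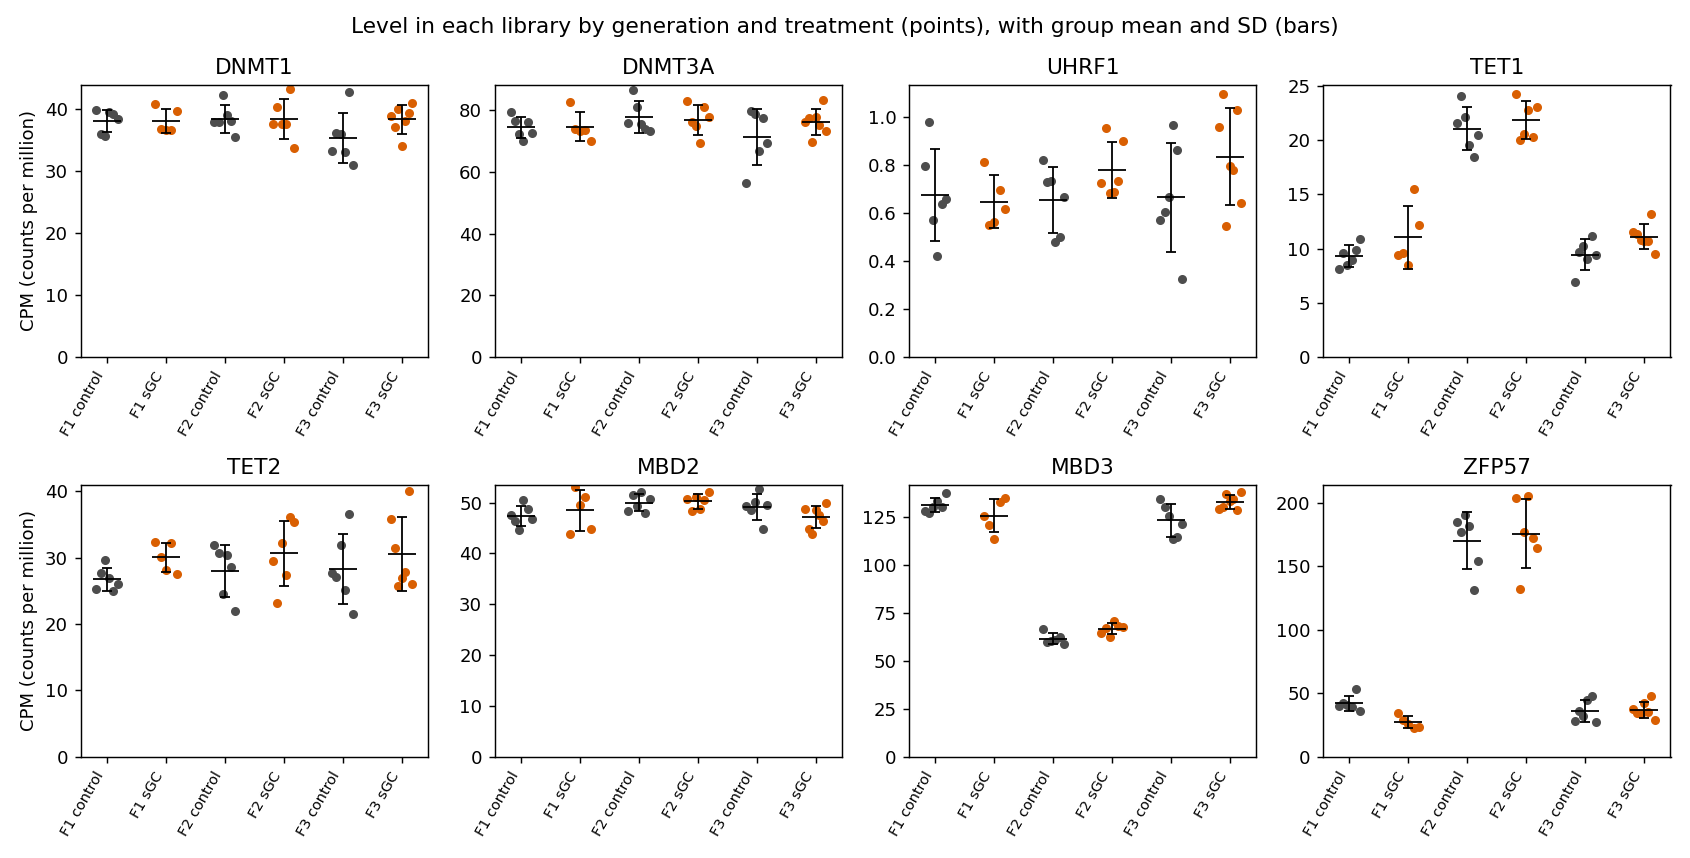
Level of each gene in CPM (y axis, from 0) in each library of the 6 groups (x axis), with points for libraries, a bar for the mean and whiskers for the SD. ZFP57 in F1 is the gene whose sGC points (22.5 to 34.3 CPM) all lie below the control points (35.97 to 53.6 CPM), and TET1, MBD3 and ZFP57 sit at another level in F2 than in F1 and F3.

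In F2 and F3, the ZFP57 groups did not differ beyond the spread between animals. The F2 controls ranged from 132 to 190 CPM with a median of 179, and the F2 sGC animals from 132 to 205 with a median of 174. This gave a log2 difference of 0.05 (SE 0.1004, edgeR adjusted p = 0.939). In F3 the controls ranged from 27.5 to 47.8 CPM with a median of 34.1, and the sGC animals from 28.7 to 47.9 with a median of 34.9. The log2 difference there was 0.04 (SE 0.133, edgeR adjusted p = 0.894). Tested directly, the sGC effect on ZFP57 was higher by 0.68 on the log2 scale in F2 than in F1 (SE 0.187, edgeR adjusted p = 0.0728) and by 0.67 in F3 than in F1 (SE 0.196, edgeR adjusted p = 0.153). Neither difference passed the threshold in the quasi-likelihood test. The likelihood ratio test and DESeq2 placed the difference between F2 and F1 past it, with adjusted p = 0.0355 and 0.0421.

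The level of ZFP57 moved with oligodendrocyte markers from library to library. Of 9 markers of these myelin-forming cells, 6 had rows in all tables (MOG, MAG, CNP, CLDN11, ERMN and OPALIN). The summed level ranged from 1587 to 2230 CPM in F1 control and from 1425 to 2048 CPM in F1 sGC animals. All 6 markers had lower F1 sGC levels (median log2 difference -0.24) and none passed the test (smallest adjusted p = 0.194 from edgeR). After the mean of each group was taken out, ZFP57 and the marker sum had a Pearson correlation of 0.73 over the 36 libraries, where both values of a point share the depth and tissue composition of 1 library. The sums of sGC replicates 2 to 5 (1454, 1568, 1493 and 1425 CPM) lay below every control sum, and that of replicate 1 (2048 CPM) lay within the control range. Markers of meningeal fibroblasts also moved with the F1 groups, with 9 of 9 measured members lower. Past the test were 2 of them (DCN and LUM), beside 2.08% of all genes tested, calls that held in 2 and 5 of 11 fits that left out a library. Their sum ranged from 808 to 1319 CPM in control and from 627 to 1130 CPM in sGC animals. Of 8 tested markers of striatal and thalamic neurons, 7 were lower in F1 sGC animals, and none passed (smallest adjusted p = 0.0878 from edgeR). As with the oligodendrocyte sum, sGC replicates 2 to 5 lay below the lowest control sum (135.3 CPM). Replicate 1 (156.1 CPM) lay within the control range. The correlation of ZFP57 residuals with this striatal and thalamic sum was 0.14 over the 36 libraries. Astrocyte markers were higher in F1 sGC animals for 9 of 9 members (median log2 difference 0.24). Of these, 1 (SLC4A4) passed the test in the full set, beside 2.08% of all genes, and in 2 of 11 fits that left out a library. ZFP57 residuals had a correlation of -0.36 with the astrocyte sum, -0.47 with the microglia sum and 0.47 with the oligodendrocyte precursor sum. In F1, 5 of 6 tested microglia markers and 2 of 6 precursor markers had positive log2 differences, and none passed. The part of RNA from any of these cell types in the ZFP57 result was not tested.

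**Figure D2:**
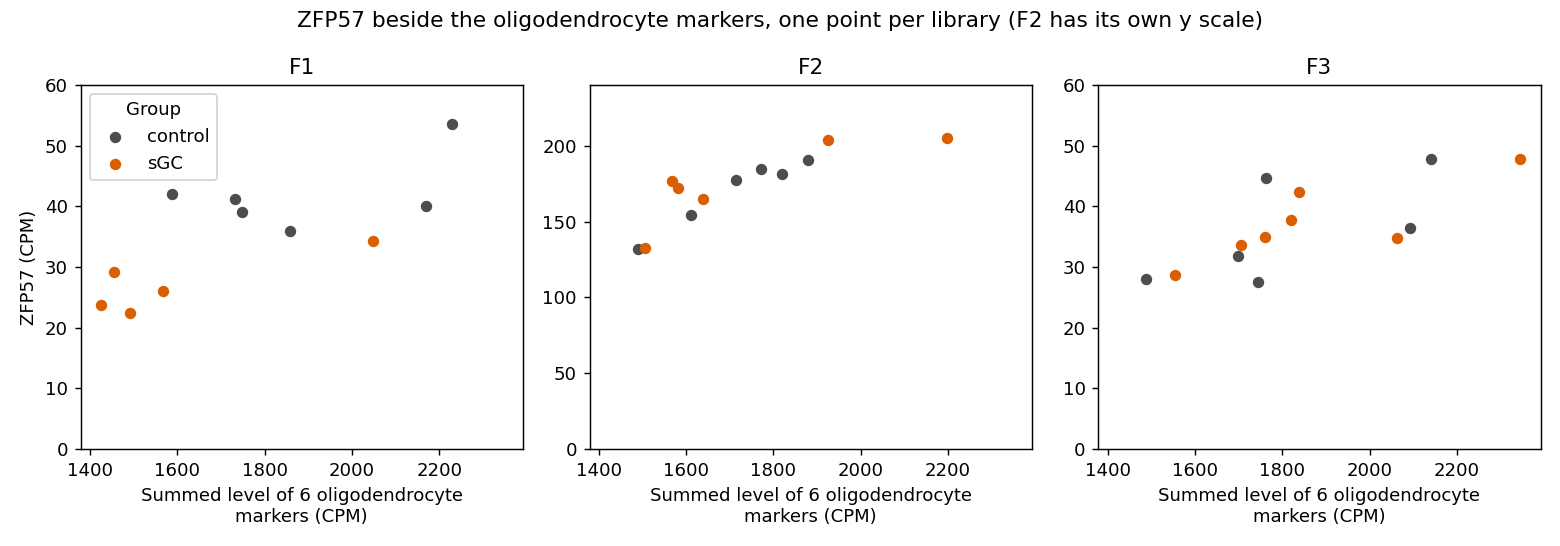
ZFP57 level in CPM (y axis) against the summed CPM of 6 oligodendrocyte markers (x axis) in F1, F2 and F3, with a point per library and F2 on its own y scale. Libraries with more marker RNA tended to have more ZFP57 in each generation (correlation of residuals 0.73). In F1, 4 of 5 sGC libraries have a smaller marker sum (1425 to 1568 CPM) than the lowest control (1587 CPM).

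Among all other genes, the 3 whose library-to-library pattern was most like that of ZFP57, by the same correlation of residuals over 36 libraries, were DOCK10 (0.76), CPD (0.76) and PICALM (0.75). Within the set, the closest partner of ZFP57 was DNMT3A (0.44), and the most opposed was MBD3 (-0.41).

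Among the writers, DNMT1 and DNMT3A did not pass the test in any generation, and their groups overlapped. DNMT1, the maintenance methyltransferase, had group means between 35.3 and 38.3 CPM. In F1 the controls ranged from 35.6 to 39.7 CPM and the sGC animals from 36.5 to 40.7 CPM. In F2 the corresponding ranges were 35.4 to 42.2 and 33.7 to 43.2 CPM. Its log2 difference was -0.00097 in F1 (SE 0.0493, edgeR adjusted p = 0.994) and -0.0040 in F2 (SE 0.0554, edgeR adjusted p = 0.994). In F3 the controls ranged from 30.9 to 42.6 CPM with a median of 34.5, and the sGC animals from 33.9 to 40.9 with a median of 38.8. There 6 of 7 sGC animals lay above the control mean, with a log2 difference of 0.12 (SE 0.0651, edgeR adjusted p = 0.310), and all 7 lay within the control range.

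DNMT3A, which sets methylation at new sites, had group means between 71.3 and 77.7 CPM. The F1 groups ranged from 69.9 to 79.4 CPM in control and from 70.1 to 82.7 CPM in sGC animals, and the F2 groups from 73.3 to 86.6 and from 69.2 to 83.0 CPM. On the log2 scale the difference was 0.0026 in F1 (SE 0.0491, edgeR adjusted p = 0.982) and -0.01 in F2 (SE 0.0484, edgeR adjusted p = 0.970). In F3 the controls ranged from 56.4 to 79.6 CPM and the sGC animals from 69.6 to 83.4 CPM, and 6 of 7 sGC animals lay above the control mean. The log2 difference was 0.10 (SE 0.0674, edgeR adjusted p = 0.449), a difference within the spread of the controls.

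UHRF1, which brings DNMT1 to half-methylated sites and is known from dividing cells, was close to the limit of measurement. It had between 5 and 20 reads in a library, a level between 0.325 and 1.10 CPM. Group means lay between 0.647 CPM (F1 sGC) and 0.835 CPM (F3 sGC). The log2 differences of -0.09, 0.25 and 0.32 in F1, F2 and F3 had standard errors of 0.234, 0.192 and 0.238, and the smallest adjusted p was 0.475 from edgeR. In F1 the SE of 0.234 on the log2 scale compares with 0.0450 to 0.141 for the other 7 genes, so that a small difference in UHRF1 was not detectable at this depth. Of 18 markers of dividing cells, 14 had rows in all tables, with a summed level between 153 and 179 CPM over all libraries. In F3, 1 of the 12 that could be tested, MCM3, passed, beside 5.04% of all genes tested. MCM3 did not pass without the libraries numbered 32 to 36 (adjusted p = 0.0857 from edgeR).

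Among the erasers, TET1 and TET2 had higher means in sGC animals in every generation, and none of these differences passed the test. TET1 converts 5-methylcytosine to 5-hydroxymethylcytosine and binds CpG-rich DNA through a CXXC domain. In the F1 sGC animals its level was 9.38, 9.59, 8.47, 15.5 and 12.2 CPM in replicates 1 to 5, against 8.09, 9.24 and 10.9 CPM as the lowest, median and highest control. The higher values in F1 were those of replicates 4 and 5, with library numbers outside the run, and the other 3 lay within the control range. The F1 difference was 0.23 on the log2 scale (SE 0.141, edgeR adjusted p = 0.376) and turned to -0.02 without replicates 4 and 5 (adjusted p = 0.930), and it was 0.09 without replicate 4 alone. Replicates 4 and 5 also had the highest sums of the 9 astrocyte markers in F1, 16389 and 13189 CPM, where the controls ranged from 8685 to 11399 CPM. The part of RNA from any of these cell types in the level of TET1 was not tested.

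In F3, TET1 lay above the control mean in 7 of 7 sGC animals. The lowest, median and highest levels were 6.96, 9.54 and 11.2 CPM in control and 9.48, 10.8 and 13.2 CPM in sGC animals, and 4 of the 7 sGC animals lay within the control range. On the log2 scale the difference was 0.24 (SE 0.0965, edgeR adjusted p = 0.160), and it was 0.20 without the libraries numbered 32 to 36. All 9 astrocyte markers also had positive log2 differences in F3, with a median of 0.23. The test was passed by 4 of them (SLC1A2, S100B, GLUL and SLC4A4), beside 5.04% of all genes tested. None of the 4 passed in a joint fit of all generations (adjusted p = 0.0780 to 0.231 from edgeR) or with a replicate block (0.0615 to 0.0927), and GLUL held in 3 of 13 fits that left out a library. The sum of the 9 markers ranged from 9575 to 10571 CPM in control and from 10785 to 12439 CPM in sGC animals, so that these groups did not overlap. Among single genes, 2.8% of those tested had separate groups in F3. Over the 36 libraries, TET1 residuals had a correlation of 0.57 with the astrocyte sum and of -0.59 with the sum of the dentate and pyramidal markers. Their correlation was 0.54 with the sum of oligodendrocyte precursor markers and 0.48 with that of endothelial markers. In F2 the TET1 groups overlapped, from 18.5 to 24.1 CPM in control and from 20.03 to 24.2 CPM in sGC animals, with a log2 difference of 0.05 (SE 0.0677, edgeR adjusted p = 0.896).

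TET2, an oxidase of the same family without the CXXC domain, lay above the control mean in 5 of 5 sGC animals of F1. Its levels there were 32.3, 30.1, 28.2, 32.1 and 27.6 CPM in replicates 1 to 5, and the lowest, median and highest controls were 24.996, 26.5 and 29.6 CPM. The groups overlapped, with 3 of 5 sGC animals above every control. The log2 difference was 0.17 (SE 0.0590, edgeR adjusted p = 0.141), and it was 0.18 without replicates 4 and 5. In F2 the log2 difference was 0.13 (SE 0.107, edgeR adjusted p = 0.826) and in F3 0.12 (SE 0.121, edgeR adjusted p = 0.632). In F3 only 3 of 7 sGC animals lay above the control mean, and the medians were 27.4 CPM in control and 27.8 CPM in sGC animals. The F3 difference was 0.04 without sGC replicate 6 and 0.05 without the libraries numbered 32 to 36. TET2 varied more between animals of a group in F2 and F3 than in F1, with coefficients of variation of 14.02% and 18.6% in the F2 and F3 controls and 6.42% in the F1 controls.

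**Figure D3:**
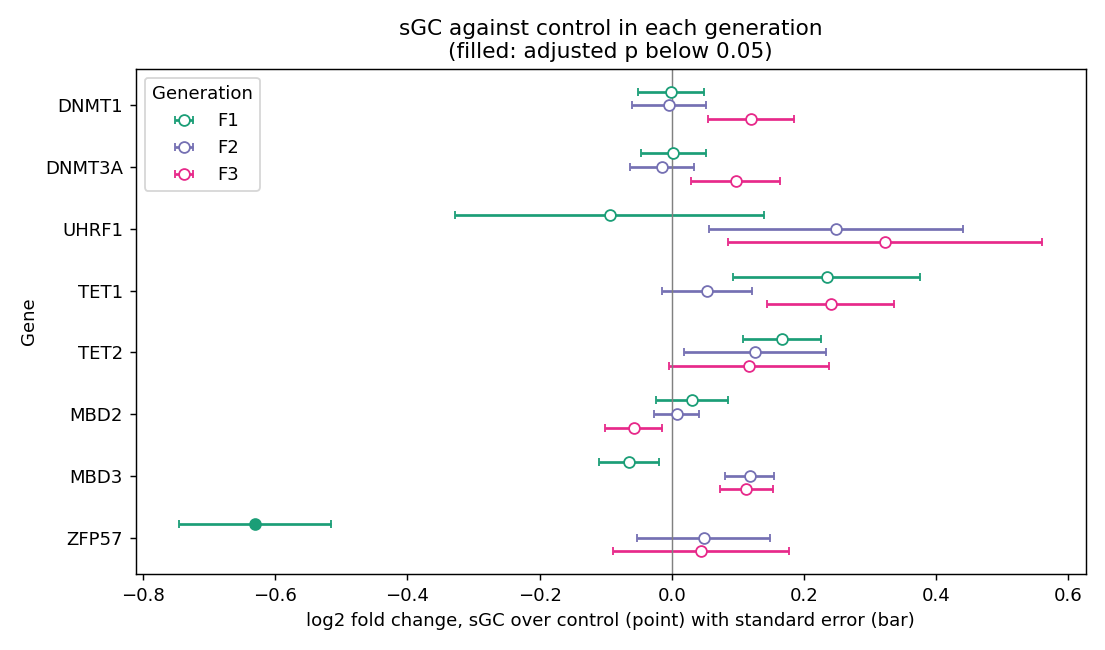
Log2 fold change of sGC over control (x axis) for each gene (y axis) in F1, F2 and F3, with whiskers for the standard error and a filled point where the adjusted p was below 0.05. ZFP57 in F1 (-0.63) is the single filled point. The values for TET1 and TET2 lie above 0 in all generations.

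Among the readers, MBD2 and MBD3 are alternative subunits of the NuRD complex, which removes acetyl groups from histones and moves nucleosomes, and mammalian MBD3 binds methylated DNA poorly. MBD2 was among the least variable genes of the set, with group means between 47.1 and 50.3 CPM and coefficients of variation between 2.93% and 8.31%. Its log2 differences were 0.03 in F1 (standard error 0.0544), 0.0073 in F2 (standard error 0.0340) and -0.06 in F3 (standard error 0.0427), with a smallest adjusted p of 0.476 from edgeR. The groups overlapped in each generation.

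MBD3 had small differences that pointed in opposite directions in F1 and in the later generations. In the F1 sGC animals its level was 126, 121, 114, 133 and 135 CPM in replicates 1 to 5, against 127, 130 and 138 CPM as the lowest, median and highest control. Replicates 1, 2 and 3 lay below every control. This gave a log2 difference of -0.06 (SE 0.0450, edgeR adjusted p = 0.445) and -0.12 without replicates 4 and 5 (adjusted p = 0.143). In F2 the lowest, median and highest levels were 59.0, 60.8 and 66.8 CPM in control and 62.7, 67.5 and 70.9 CPM in sGC animals. All 6 F2 sGC animals lay above the control mean and 4 above every control. On the log2 scale the difference was 0.12 (SE 0.0369, edgeR adjusted p = 0.678). In F3 the same levels were 114, 123 and 135 CPM in control and 129, 134 and 138 CPM in sGC animals. All 7 F3 sGC animals lay above the control mean and 2 above every control. The log2 difference was 0.11 (SE 0.0400, edgeR adjusted p = 0.114). The sGC effect on MBD3 was higher by 0.18 on the log2 scale in F2 than in F1 (SE 0.0598, edgeR adjusted p = 0.123) and by 0.17 in F3 than in F1 (SE 0.0570, edgeR adjusted p = 0.204). Without the libraries numbered 32 to 36 the difference between F3 and F1 was 0.25 and passed the threshold (edgeR adjusted p = 0.0212).

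Counted over the set, 1 of 8 genes passed in F1, 0 of 8 in F2 and 0 of 8 in F3. In F2, 0 of 11414 genes passed in all (0%) with edgeR's quasi-likelihood test, 758 genes had an unadjusted p below 0.05, and the likelihood ratio test called 6 genes and DESeq2 12, none of them in the set. In F3, 573 of 11359 genes passed (5.04%). An unadjusted edgeR p below 0.05 was found there for 2397 of the 11359 genes and for 2 of the 8, TET1 and MBD3. The groups of none of the 8 genes were separate in F2, where 0.41% of the genes tested were, or in F3, where 2.8% were. The median log2 difference of the 8 genes was 0.00080 in F1, 0.05 in F2 and 0.12 in F3, beside medians of -0.0055, -0.00041 and 0.0048 over all genes tested. The F3 value rests on 7 of 8 positive values, MBD2 being the exception, and no gene of the set passed the test there. For the difference of the sGC effect between generations, 34 of 11388 genes (0.299%) passed between F2 and F1, 0 (0%) between F3 and F1 and 0 (0%) between F3 and F2, and 0 of the 8 genes in each. At an unadjusted p below 0.05 there were 1901 genes between F2 and F1, 1471 between F3 and F1 and 1026 between F3 and F2. Of these, 2, 2 and 0 belonged to the set. Between F3 and F1 the likelihood ratio test called 56 genes and DESeq2 64, and between F3 and F2 both called 0. The comparisons between generations use the same control animals as those within a generation.

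Across the control libraries, 3 of the 8 genes differed between generations, and in each case it was the F2 table that stood apart. TET1 had a mean of 9.30 ± 1.02 CPM (SD, n = 6) in F1, 21.1 ± 1.98 in F2 (SD, n = 6) and 9.43 ± 1.43 in F3 (SD, n = 6). The log2 difference of F2 from F1 was 1.18 (SE 0.0917, edgeR adjusted p = 1.83e-10). MBD3 had a mean of 131 ± 3.79 CPM (SD, n = 6) in F1, 61.7 ± 2.80 in F2 (SD, n = 6) and 123 ± 8.43 in F3 (SD, n = 6), a log2 difference of F2 from F1 of -1.09 (SE 0.0414, edgeR adjusted p = 1.75e-16). ZFP57 had 42.0 ± 6.09, 170 ± 22.5 and 36.1 ± 8.57 CPM (SD, n = 6 in each), a log2 difference of F2 from F1 of 2.01 (SE 0.121, edgeR adjusted p = 1.31e-12).

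For these 3 genes no library of F2 overlapped with any library of F1 or F3, sGC libraries included. The share of all genes with such a separation was not counted, and 47.1% of all genes passed the test between the F2 and F1 controls. TET1 ranged from 18.5 to 24.2 CPM in the 12 F2 libraries, from 8.09 to 15.5 in F1 and from 6.96 to 13.2 in F3. ZFP57 ranged from 132 to 205 CPM in F2, from 22.5 to 53.6 in F1 and from 27.5 to 47.9 in F3. MBD3 ranged from 59.0 to 70.9 CPM in F2, from 114 to 138 in F1 and from 114 to 138 in F3. The F2 sGC replicate 6, whose library number 33 lies among those outside the runs, had 165 CPM of ZFP57, 23.1 of TET1 and 67.8 of MBD3, at the level of the other F2 libraries. F1 sGC replicate 4 (library 35) had 15.5 CPM of TET1, between the highest F1 control at 10.9 CPM and the lowest F2 control at 18.5 CPM. Its ZFP57 level of 22.5 CPM was the lowest of F1, and its MBD3 level of 133 CPM lay within the F1 control range.

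The other 5 genes did not pass the test between tables. In the control libraries the log2 differences of F2 from F1 were 0.02 for DNMT1, 0.06 for DNMT3A, -0.07 for UHRF1, 0.07 for TET2 and 0.08 for MBD2, with a smallest adjusted p of 0.116 from edgeR. Over all genes, 5323 of 11309 (47.1%) passed between F2 and F1, against 3 of these 8. Between F3 and F2, 4521 (40%) and the same 3 of 8 passed. Between F3 and F1, 2 genes (0.0177%) and 0 of 8 passed, with the lowest p of the set for MBD3 (log2 difference -0.09, edgeR adjusted p = 0.518). As a share of genes that passed the test, 3 in 8 lies near these shares of all genes for the F2 table. By size it does not. The 3 differences of F2 from F1 were each over 2-fold, as were those of 454 of 11309 genes, a smaller share. That of ZFP57 was also over 4-fold, as were those of 176 genes.

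**Figure D4:**
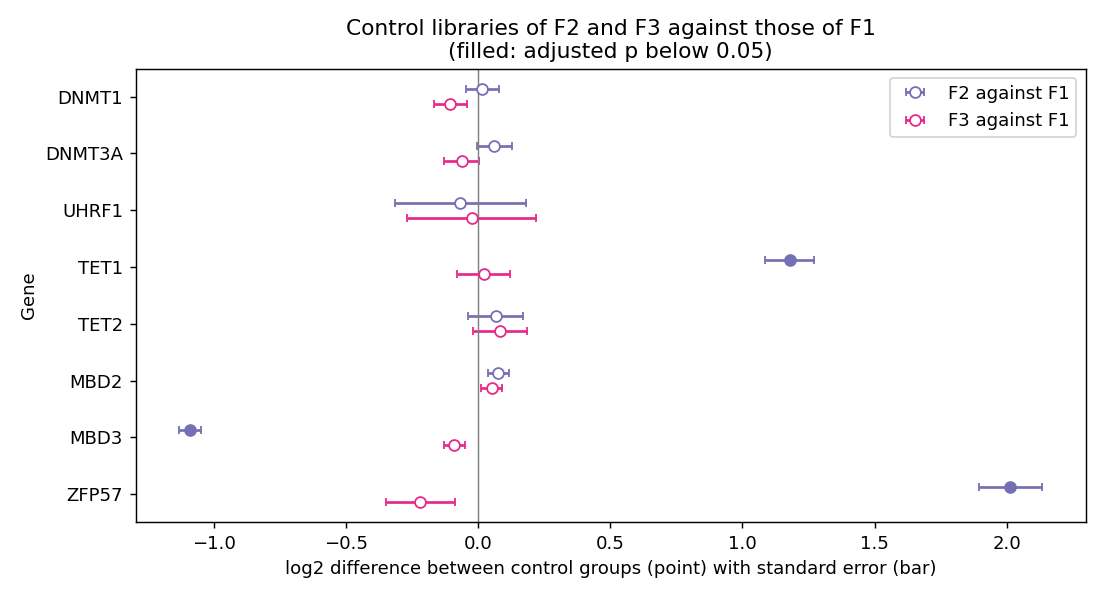
Log2 difference of the F2 and F3 control libraries from the F1 control libraries (x axis) for each gene (y axis), with whiskers for the standard error and a filled point where the adjusted p was below 0.05. The filled points are TET1 (1.18), MBD3 (-1.09) and ZFP57 (2.01) in F2, and all F3 points lie within 0.22 of 0.

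The wider pathway was read from lists of genes around the set. Of 13 writers and their cofactors, 12 were tested in each generation and none passed. Of 20 erasers and base excision repair genes, 17 were tested and none passed in any generation. Of 13 readers, 11 were tested, and ZFP57 in F1 was the one that passed. Among 14 NuRD subunits, 13 were tested, and CHD3, a nucleosome-remodelling ATPase of the complex, rose in F3. Its mean was 588 ± 25.4 CPM (SD, n = 6) in control and 666 ± 29.7 CPM (SD, n = 7) in sGC animals, with ranges of 549 to 615 and 622 to 717 CPM that did not overlap. This gave a log2 difference of 0.18 (SE 0.0374, edgeR adjusted p = 0.0111) in F3, 0.17 in F1 (adjusted p = 0.199) and 0.06 in F2 (adjusted p = 0.777). With a replicate block the adjusted p in F3 was 0.0506. CHD3 was 1 of 13 subunits called in F3, beside 5.04% of all genes tested. Groups that did not overlap were found there for 2.8% of the genes tested.

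Of 10 partners of ZFP57, 7 were tested, and TRIM28 was not analysed here. ATF7IP, which binds the histone methyltransferase SETDB1, rose in F1 sGC animals, where 1 of the 7 passed beside 2.08% of all genes tested. Its mean was 42.8 ± 1.95 CPM (SD, n = 6) in control and 49.5 ± 1.73 CPM (SD, n = 5) in sGC animals, with ranges of 40.9 to 45.5 and 46.9 to 51.4 CPM. On the log2 scale the difference was 0.21 (SE 0.0428, edgeR adjusted p = 0.0300). The call depended on single libraries, since it held in 4 of 11 fits that left out a library and was lost without replicates 4 and 5 (adjusted p = 0.0813) and with a replicate block (adjusted p = 0.0893). In F2 and F3 the log2 differences of ATF7IP were -0.04 and 0.06, with adjusted p = 0.880 and 0.622.

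Imprinted genes, some of whose control regions ZFP57 is known to bind, numbered 59 on the list, of which 35, 33 and 34 were tested in F1, F2 and F3. Of these, 1 passed in F1, 0 in F2 and 3 in F3, all lower in sGC animals, beside 2.08%, 0% and 5.04% of all genes tested. The median log2 differences of the list were -0.02, -0.03 and -0.02. TSSC4 in F1 had 21.4 ± 0.745 CPM (SD, n = 6) in control and 18.5 ± 0.904 CPM (SD, n = 5) among sGC animals, which is -0.21 on the log2 scale (edgeR adjusted p = 0.0494). This call stayed past the threshold in 1 of 11 fits that left out a library. In F3, NDN, which encodes the growth suppressor necdin, fell by 0.20 in log2 units (edgeR adjusted p = 0.00540), with means of 107 ± 4.08 CPM (SD, n = 6) for control and 92.7 ± 4.03 CPM (SD, n = 7) for sGC animals. BLCAP went from 183 ± 5.74 to 168 ± 3.20 CPM (log2 difference -0.12, edgeR adjusted p = 0.0168) and TRAPPC9 from 94.3 ± 8.30 to 81.4 ± 5.93 CPM (log2 difference -0.21, edgeR adjusted p = 0.0397). NDN and BLCAP passed in all 13 fits that left out a library, and TRAPPC9 in 4 of 13. With a replicate block NDN kept its call (edgeR adjusted p = 0.0394), and BLCAP (0.115), TRAPPC9 (0.120) and, in F1, TSSC4 (0.152) did not. Without the libraries numbered 32 to 36, NDN kept its call (edgeR adjusted p = 0.0221), and BLCAP (0.0658) and TRAPPC9 (0.0811) did not.

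For the other genes of the set, the gene with the most similar pattern over the 36 libraries was WWP2 for DNMT1 (correlation 0.80), CDON for DNMT3A (0.80), KAT6B for UHRF1 (0.71), NDST1 for TET1 (0.79), MTMR3 for TET2 (0.74), RMDN2 for MBD2 (0.68) and SF3A2 for MBD3 (0.80). These are the highest of 11387 correlations for each gene and are a description. Within the set, correlations lay between -0.41 and 0.44. The highest were DNMT3A with ZFP57 (0.44), UHRF1 with ZFP57 (0.42) and DNMT3A with TET1 (0.40), and MBD2 and DNMT1 were opposed (-0.37).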

How the data were processed

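RNA was extracted from powdered hippocampus and made into TruSeq mRNA libraries by the authors. The submitters' processing notes name TopHat2 and edgeR for the RNA, and the genome build, annotation and counter of the RNA reads are not given in the sources used here. Each generation has 1 table, in which the authors deposited unnormalized counts of reads for its genes and libraries. The tables hold 11651, 11716 and 11663 genes in F1, F2 and F3. Columns of the authors' own comparisons (fold changes, p-values) and the methylation tables, which hold such comparisons, were not used here.

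Groups came from the sample labels. Genes were matched by symbol with case ignored, and symbols that name 2 rows by case were left out across tables. Each generation was fitted alone with edgeR 4.0.16 in R 4.3.3 (filterByExpr, TMM, quasi-likelihood test, Benjamini-Hochberg over all genes tested, threshold 0.05). Standard errors were derived from the F statistic. Differences between generations were tested over all 36 libraries as interactions, and the 18 control libraries were compared in a fit of their own. Levels are CPM scaled by TMM over the 11444 genes in all tables, and levels of different genes are not compared, since no transcript lengths were used. Correlations used log2 CPM (prior count 2) after subtraction of group means. Alternatives were the likelihood ratio test, DESeq2 1.42.0, RLE and upper-quartile scaling, no filter, a joint fit, a replicate block and fits without libraries. The fits were tested on simulated data. The genes, lists and comparisons were chosen with earlier results of these data known. The rule named every gene of the set, the gene with the most similar pattern for each (3 for ZFP57), and up to 6 list genes past the threshold per list and generation. The paper states that the females studied, and the F1 fathers, came from independent mothers. The labels name no litters, and p-values set the group differences against the spread between these libraries.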

Additional observations from a re-analysis of the deposited data

Results flagged for a closer look

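In the F1 controls, replicate 5 had 53.6 CPM of ZFP57, far from the next highest of the 6 animals at 42.0 CPM, a gap of 0.657 of the group's range by Dixon's ratio against a critical value of 0.625. It was the single such value among 48 gene and group combinations examined, and chance flags about 1 in 20 groups, or 2.4 of 48. The same animal had the highest oligodendrocyte marker sum of the F1 libraries, 2230 CPM. Without it the log2 fold change of ZFP57 in F1 was -0.54.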

How the results depend on the processing

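Of the tested values, ZFP57 in F1 kept its call with the likelihood ratio test, DESeq2, both other scalings, no filter, the joint fit and the replicate block (-0.67, adjusted p = 0.0351), and lost it without the libraries numbered 32 to 36 and without sGC replicate 5, where 0 of the 8 genes passed, so that leaving out single libraries gave 0 to 1 genes of the set. The share of genes called in F1 (2.08%) became 5.26% with the likelihood ratio test, 5.60% with DESeq2, 7.47% in the joint fit, 0.845% without libraries 32 to 36 and 0.490% to 2.995% without single libraries (sGC replicates 5 and 4). In F2 (0%) it became 0.0526% with the likelihood ratio test, 0.102% with DESeq2 and 0% to 0.00875% without single libraries. In F3 (5.04%) it became 8.09% with DESeq2, 2.79% without libraries 32 to 36 and 2.54% to 5.63% without single libraries (sGC replicates 5 and 6). For the difference between F2 and F1 (0.299%) it became 1.45% with the likelihood ratio test, 2.39% with DESeq2 and 0.596% without libraries 32 to 36, and 1 gene of the set, ZFP57, passed in the first 2. For F3 against F1 (0%) the same settings gave 0.492%, 0.559% and 3.78%, the last with 1 gene of the set, MBD3. For the F3 and F1 controls (0.0177%) the likelihood ratio test gave 0.0884%, leaving out single libraries 0% to 0.0530%, and a fit without the F2 table, chosen after seeing the data, 0%. The cause was not tested.

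Same-numbered libraries did not pair: 3 of 17 pairs had a correlation of deviations over 0.1, and 4 of 17 sGC libraries correlated best with their own number. A replicate block called 0.686% of genes in F1, 1.25% in F3 and 0.0350% for F2 against F1, and changed no call in the set. Within F1 and F3 the block fits also left out the library with no partner of its number. These were F1 control replicate 6 and F3 sGC replicate 7, so that the block and the missing library cannot be told apart. Calls of other named genes that were lost in these fits are given beside them. Under the block the values that changed sign were DNMT1 (0.0056) and DNMT3A (-0.00096) in F1, and TET2 (0.0257) and ZFP57 (0.0660) for F3 against F2.

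The other changes of sign were in values that passed no test, the largest being TET1 in F1 (0.23) and TET1 for F2 against F1 (-0.18). DNMT1 in F1 became 0.0039 with DESeq2, 0.0035 with RLE, 0.0053 with no filter and 0.00076 in the joint fit, and MBD2 in F2 became -2.3e-05 with upper-quartile scaling. Without libraries 32 to 36, DNMT1 became 0.00081 in F1 and 0.0291 in F2, TET1 -0.0237 in F1, MBD2 -0.0036 in F2, ZFP57 -0.0258 in F3, DNMT1 and TET1 0.0354 and 0.0679 for F2 against F1, and MBD3 0.0020 for F3 against F2. Leaving out single libraries gave in F1 -0.0286 to 0.0160 for DNMT1, -0.0382 to 0.0294 for DNMT3A, -0.193 to 0.0513 for UHRF1 and -0.0047 to 0.0640 for MBD2. In F2 it gave -0.0402 to 0.0291 for DNMT1, -0.0383 to 0.0192 for DNMT3A, -0.0046 to 0.0203 for MBD2 and -0.0147 to 0.118 for ZFP57, and in F3 -0.0297 to 0.141 for ZFP57. Between controls it gave -0.0150 to 0.0378 for DNMT1 and -0.159 to 0.0784 for UHRF1 (F2 against F1), -0.0369 to 0.0940 for TET1, -0.0061 to 0.152 for TET2 and -0.171 to 0.122 for UHRF1 (F3 against F1), and -0.0723 to 0.0853 for TET2 and -0.104 to 0.179 for UHRF1 (F3 against F2). The 3 genes called between the F2 controls and the others passed in every alternative of that comparison, and without F3 control replicate 5 DNMT1 passed as well between F3 and F2, giving 3 to 4 genes of the set. UHRF1 rested on 5 to 20 reads in a library.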
